A study of Mus musculus with 6 samples.

Results

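The genes described here encode the machinery of mitosis: the cyclins and kinases that drive cells into division, the spindle and its motors, the kinetochores that hold chromosomes to the spindle, and the checkpoint that delays anaphase. The list was given by symbol and holds 50 genes. Probe sets naming a listed gene as their only symbol were found for 47 of the 50, and the brightest probe set of each gene was used, among 12393 genes read this way on the arrays. Ccnb1, Cdca8 and Espl1 are not analysed here. Of the 47 genes, 46 were bright enough to be tested among 8675 genes in all. The list was put together with earlier results of these data known, in which dividing-cell genes were lower after p300 deletion, so the common direction below is not independent evidence of it.

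Mouse CD4+CD25+ regulatory T cells (Treg) of the C57Bl/6 strain were compared between 2 genotypes, with 3 arrays each and 1 sample per array. The p300-deleted group is labelled fl-p300/Foxp3cre, so that a Cre recombinase expressed from Foxp3 deletes the floxed gene of the histone acetyltransferase p300 in cells that express Foxp3. The controls are labelled Foxp3cre, the same Cre by label, although their sample titles call them WT. Whether the control cells carry it was not checked. The title of the study concerns the part p300 plays in Treg function and tumour immunity. Neither the labels nor the design text give ages, sexes or any pooling of animals. Samples are described as independent, but separate animals are not named, so the spread behind each p-value is that between arrays and may be partly technical. Cells were isolated with magnetic beads, which leaves some cells of other types.

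Genes of the separated T cells were bright in every array, with Cd3e between 11.21 and 11.63 and Il2ra, the CD25 chain, between 8.62 and 9.17 (all values are log2 of the probe set signal). Cd4 read 9.74 to 10.07 in the p300-deleted arrays and 8.91 to 9.45 in controls, with no overlap (difference 0.68, adjusted p = 0.0746). Ikzf2, or Helios, was dimmer and uneven among controls, at 4.11, 4.18 and 5.68, against 5.02 to 5.47 after deletion. Foxp3, the defining transcription factor of Treg, read 9.35 to 9.63 in controls. In the p300-deleted arrays it read 2.57 to 3.15, close to the medians of the bacterial control probe sets (2.18 to 2.34). These values lie below the brightest bacterial probe set of each array (3.66 to 3.89), so Foxp3 was not above background there and no size is given for its difference. The p300 gene itself is not analysed here, so its deletion was not checked. The array median ran from 5.38 to 5.46. Gapdh read higher at its 3′ than at its 5′ control probe set, a measure of how intact the RNA was, by 0.06 to 0.14 in the p300-deleted arrays and 0.21 to 0.59 in controls, and 18S ribosomal RNA read 7.74 to 9.47 against 5.68 to 8.69. The same measure from the actin control probe sets overlapped between groups, at 0.29 to 0.43 in the p300-deleted arrays and 0.30 to 0.46 in controls. Fits with the Gapdh value or the 18S value as a covariate are given with the results.

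In dividing cells most of these genes are silent in G1 and are switched on together in late S, G2 and M phase. Their repression outside that time is carried out by the DREAM complex and their activation by B-Myb and FoxM1, which act largely through a promoter element called the CHR (cell cycle genes homology region), often with upstream CCAAT boxes bound by NF-Y. Some of the proteins are then removed at the end of mitosis by the anaphase-promoting complex. Resting T cells express little of this set. In bulk samples such as these, fewer dividing cells and less RNA per dividing cell cannot be told apart.

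The promoters of these genes show what they have in common beyond their function. The windows used run from 250 bases before to 50 bases after a transcript start, from RefSeq on GRCm38.p6, and 43 of the 50 genes had 46 such windows. They were searched on both strands for the CHR hexamers TTTGAA and TTCGAA, the latter being its own reverse complement, and for CCAAT. In 1 place a CHR match and a CCAAT match overlapped. A CHR hexamer was found in 36 of the 46 windows (78.3%), against 19.2% of all 32851 windows and 13.6% of the 9088 windows of genes tested on the arrays. A CCAAT box was found in 37 (80.4%), against 37.4% and 37.2%, and both elements in 33 (71.7%), against 7.52% and 5.5%. The median GC content was 58.7% in the members' windows and 60.7% in those of the tested genes.

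**Figure D1:**
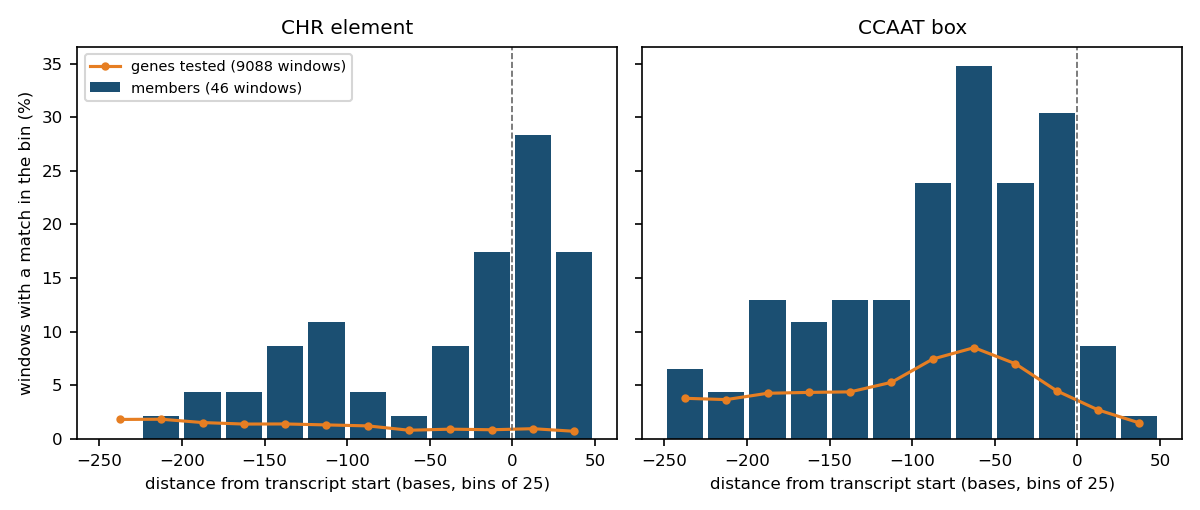
Share of promoter windows (percent, vertical axis) with a CHR hexamer (left) or a CCAAT box (right) beginning in each bin of 25 bases, by distance from the transcript start. Bars are the 46 windows of the mitosis genes and the line is the 9088 windows of the genes tested; CHR matches of the mitosis genes peak in the bin just after the start (28.3% against 0.968%) and CCAAT matches 50 to 75 bases before it (34.8% against 8.52%).

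Most CHR matches lay close to the start, 33 of 50 within 50 bases on either side, while 66 of 88 CCAAT matches began in the 150 bases before it. In 11 of the 46 windows (23.9%) a pair of CCAAT matches began 28 to 36 bases apart, a range set after the windows were seen, against 3.46% of the windows of tested genes. Among genes outside the list, CHR hexamers were found in 39.2% of 125 windows of other mitosis genes and in 18.6% of 59 windows of G1 to S and replication genes.

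Stretches of 6 of these promoters are shown because the arrays bear on each of the genes. Ttk and Ccnf are the members that passed the test on the arrays and hold both elements within their windows. Aurkb and Kif20a, which also passed, had no window and were not searched. Cdk1, Cdc20, Mki67 and Birc5 were chosen after their windows had been seen, the first 3 for both elements and Birc5 for having neither. Each runs 5′ to 3′ on the gene's strand and starts 150 bases before the transcript start, with matches in capitals; the last 38 bases for Ttk and 71 for Mki67 were left out because an annotated gene span covers them, so that a second CCAAT match of Ttk is not shown. The CHR match of Ttk lies after the start and is not shown either.
Ttk (chr9:83834539-83834650, plus strand): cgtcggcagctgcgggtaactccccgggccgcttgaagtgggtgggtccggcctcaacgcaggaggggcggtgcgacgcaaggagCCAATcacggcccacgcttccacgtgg
Ccnf (chr17:24251410-24251559, minus strand): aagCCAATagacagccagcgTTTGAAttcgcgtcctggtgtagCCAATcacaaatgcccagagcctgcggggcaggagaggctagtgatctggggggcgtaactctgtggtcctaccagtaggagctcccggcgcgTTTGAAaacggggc
Cdk1 (chr10:69352913-69353062, minus strand): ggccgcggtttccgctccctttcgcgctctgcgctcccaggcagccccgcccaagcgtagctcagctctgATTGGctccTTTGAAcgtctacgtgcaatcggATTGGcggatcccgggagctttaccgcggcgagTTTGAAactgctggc
Cdc20 (chr4:118437344-118437493, minus strand): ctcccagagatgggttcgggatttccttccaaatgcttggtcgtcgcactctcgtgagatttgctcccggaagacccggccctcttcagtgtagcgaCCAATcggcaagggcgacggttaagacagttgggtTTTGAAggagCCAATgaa
Mki67 (chr7:135716451-135716529, minus strand): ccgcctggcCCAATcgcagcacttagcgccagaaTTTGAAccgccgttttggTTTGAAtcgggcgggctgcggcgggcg
Birc5 (chr11:117849087-117849236, plus strand): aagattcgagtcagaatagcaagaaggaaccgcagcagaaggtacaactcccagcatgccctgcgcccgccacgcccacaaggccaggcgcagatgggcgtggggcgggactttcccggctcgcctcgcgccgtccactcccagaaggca

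Ccnf has 2 CCAAT boxes with a CHR hexamer between them towards the 5′ end of the stretch, and a further CHR hexamer just before the start. Cdk1 has 2 CHR hexamers alternating with 2 CCAAT boxes read from the other strand, and Mki67 has a CCAAT box followed by 2 CHR hexamers. Such matches are letters in a window, not shown binding sites. Among the 39 tested members with a window, the 28 holding both elements had a median array difference of -0.904 (range -1.26 to -0.11) and the 11 others -0.849 (range -1.13 to -0.27), so the ranges overlapped widely.

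On the arrays, 45 of the 46 tested mitosis genes had a lower mean in p300-deleted cells than in controls. The median difference, p300-deleted minus control, was -0.89 on the log2 scale, against -0.03 over all 8675 genes tested. A difference below -1 was seen for 17 of the 46 members (37.0%) and for 0.461% of all genes. For 31 of the 46 (67.4%) all 3 p300-deleted arrays lay below all 3 controls, where 13.2% of all genes did so. Few of them passed the test. In limma, with p-values adjusted over all genes, 4 of 46 members fell (8.7%), where 0.726% of all genes were called lower and 1.72% were called in either direction; 15 members were lower at an adjusted p under 0.1, where 2.33% of all genes were. Without adjustment, 39 members were lower at p under 0.05, where 9.89% of all genes were, the share to set beside counts of lower genes below. For counts of higher genes, 86 of the 8675 genes were called higher and 712 were higher at an unadjusted p under 0.05.

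**Figure D2:**
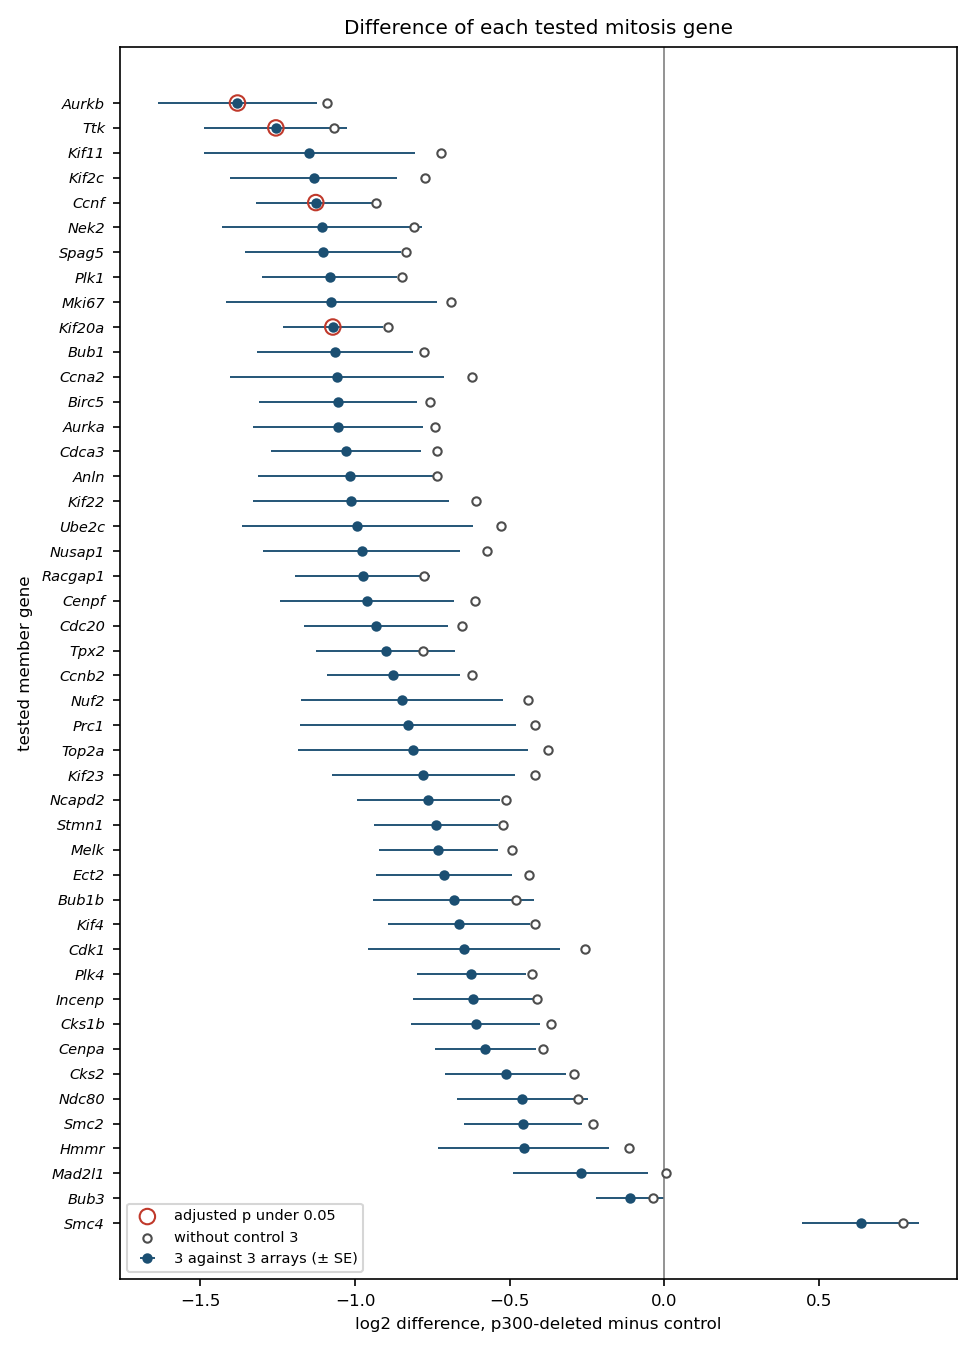
Difference of each of the 46 tested mitosis genes, as p300-deleted minus control (log2), with filled points and bars for the difference and its standard error over 3 against 3 arrays. Red rings mark the 4 genes with an adjusted p under 0.05 and open points give the difference without control 3; only Smc4 lies above 0 with all arrays.

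The members also shared a pattern over single arrays. Control 3 was the highest of the 6 arrays for 45 of 46 members (97.8%), where it was highest for 15.6% of all genes. Relative to each gene's own mean, the members averaged 0.28, -0.02 and 0.97 in controls 1, 2 and 3, and -0.15, -0.57 and -0.51 in p300-deleted 1, 2 and 3. Control 3 exceeded the mean of controls 1 and 2 by a median of 0.83, close to the median difference between groups. In the deleted group, p300-deleted 1 was the highest for 43 members, and over the 46 it exceeded the mean of the other arrays of its group by a median of 0.39. The nearest arrays of the groups, p300-deleted 1 and control 2, kept the order of the groups for 33 of 46 members. The standard error of a member was 0.24 at the median, against 0.126 over all genes.

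**Figure D3:**
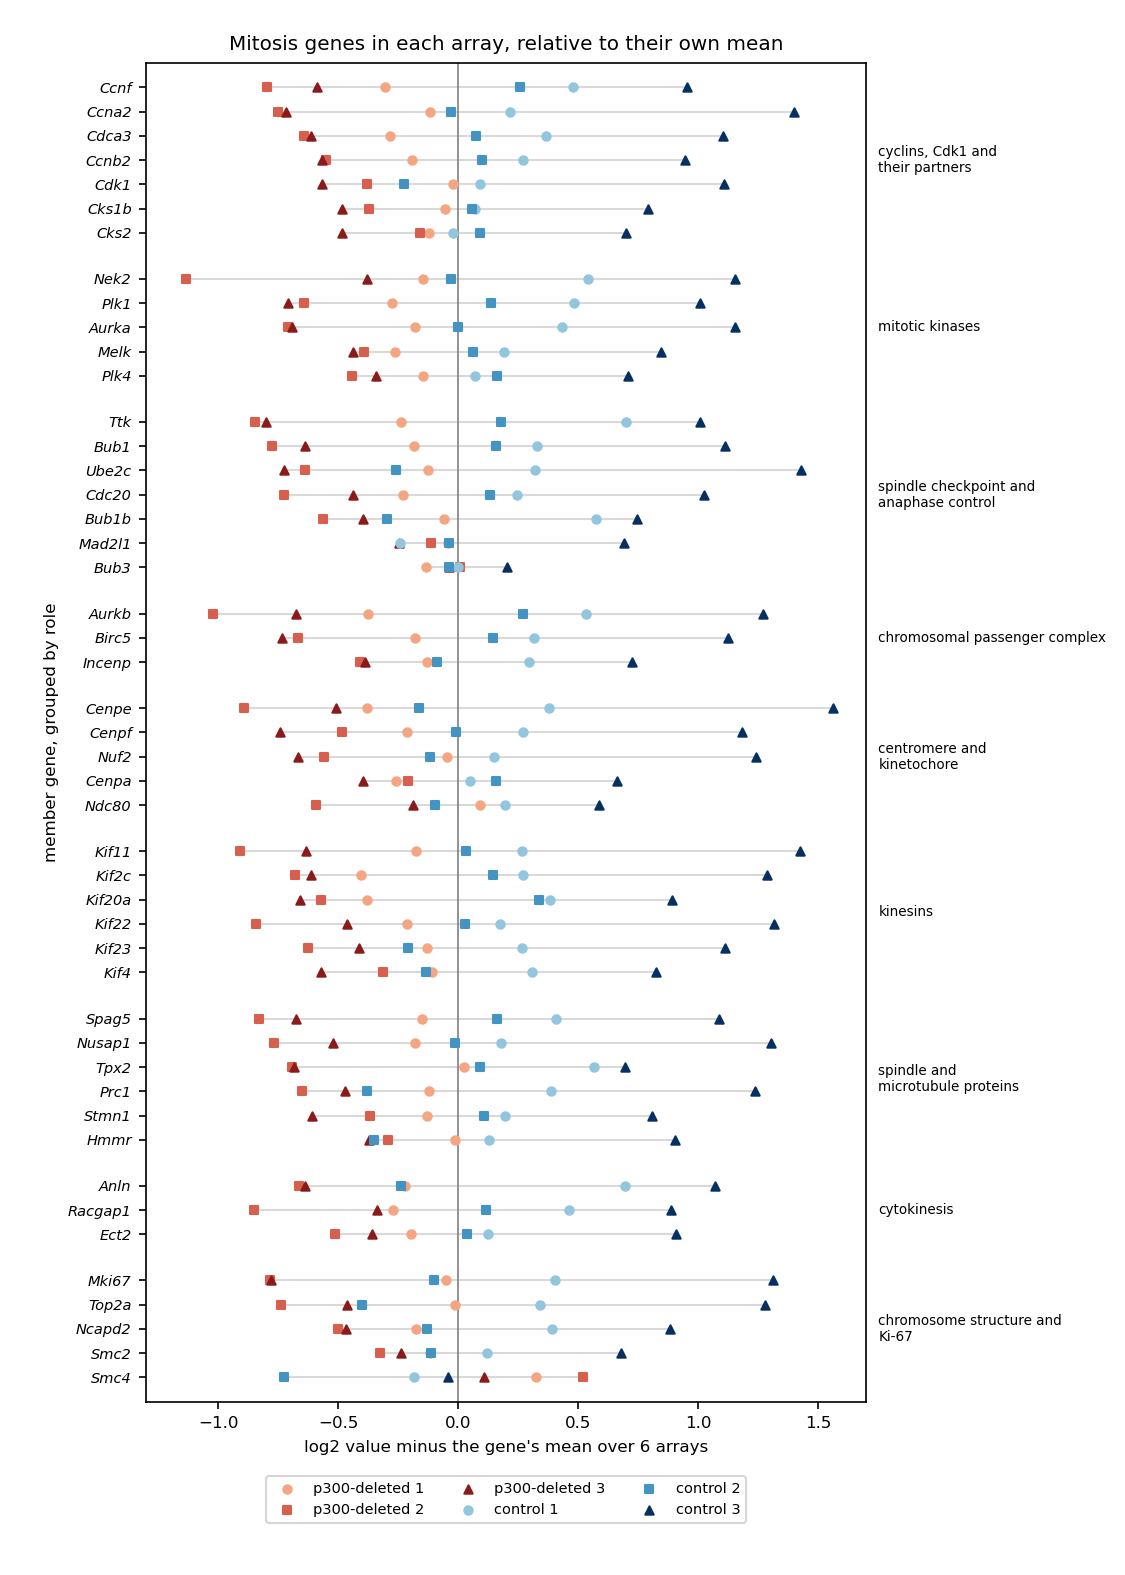
Each of the 47 measured mitosis genes in each of the 6 arrays, as its log2 value minus the gene's mean over the arrays (horizontal axis), grouped by role. Control 3 (dark blue triangles) lies farthest right in every row except Smc4, and p300-deleted 2 and 3 farthest left in most.

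Without control 3 the median difference was -0.55, and 44 of 46 members stayed negative. The exceptions were Smc4 and Mad2l1. The 4 called genes were again called, together with Plk1, Kif2c and Cdca3, making 7 of 46, where 1.05% of all genes were called lower in that fit. For 31 members the p300-deleted arrays lay below controls 1 and 2, where 25.9% of all genes did. Leaving out an array cannot lower that count. Without control 2 limma called 8 (0.622% of all genes were called lower) and without p300-deleted 1 it called 1 (0.173%). It called 0 without p300-deleted 2 (0.0576%), without p300-deleted 3 (0.15%) and without control 1 (0.0576%). In those last fits 33, 30 and 34 members were lower at an unadjusted p under 0.05, where 5.29%, 8.1% and 7.59% of all genes were. With the Gapdh 3′ minus 5′ value as a covariate the median difference was -1.40 with 3 calls (0.265% of all genes called lower). The Gapdh values did not overlap between groups, so in that fit they and the genotype cannot be well told apart. With the 18S value it was -1.18 with 0 limma calls (0.0576% of all genes), and 43 members were lower at an unadjusted p under 0.05, where 6.27% of all genes were.

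The cyclins, Cdk1 and their partners come first in the order of events. Of 7 tested, 1 fell, with a median of -0.88 and no positive value. Ccnf, or cyclin F, the substrate receptor of a ubiquitin ligase active in G2, read 4.71, 4.21 and 4.42 after deletion and 5.49, 5.27 and 5.96 in control arrays. The groups did not overlap, and even the lowest control lay above every p300-deleted array. The difference was -1.13 (SE 0.19, adjusted p = 0.0392), with means of 4.45 ± 0.25 after deletion and 5.57 ± 0.36 in control cells (SD, n = 3 each).

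Ccna2 encodes cyclin A2, which works in S and G2, and read 7.97, 7.34 and 7.37 after deletion and 8.31, 8.06 and 9.49 in control arrays. The groups did not overlap, with control 3 far above the others. The difference was -1.06 (SE 0.35, adjusted p = 0.166). Ccnb2, a cyclin B, was at -0.88 (adjusted p = 0.0880) and Cdca3, which promotes entry into mitosis by targeting Wee1 for destruction, at -1.03 (adjusted p = 0.0773). Cdk1, the kinase these cyclins activate, read 7.25, 6.89 and 6.70 after deletion and 7.36, 7.05 and 8.38 in control arrays. Here p300-deleted 1 lay above control 2, and the difference of -0.65 (SE 0.31, adjusted p = 0.315) was -0.26 without control 3. The small Cdk-binding proteins Cks1b and Cks2 had like patterns. Cks1b read 9.74, 9.42 and 9.31 after deletion and 9.86, 9.85 and 10.58 in control arrays. Cks2 read 9.55, 9.51 and 9.18 after deletion and 9.65, 9.76 and 10.37 in control arrays. Neither overlapped between groups, and their differences of -0.61 and -0.51 had adjusted p of 0.182 and 0.218.

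The mitotic kinases outside the checkpoint and passenger complex had a median of -1.05 over 5 tested genes, of which 0 were called by limma (5 had an unadjusted p under 0.05). Plk1, polo-like kinase 1, which acts from mitotic entry to cytokinesis, read 6.77, 6.41 and 6.34 after deletion and 7.53, 7.18 and 8.05 in control arrays. Its groups were well apart, and at -1.08 (SE 0.22) its adjusted p of 0.0501 was the lowest among the members not called, with a call under 7 of 16 alternatives. Nek2, which separates centrosomes, read 4.52, 3.54 and 4.29 after deletion and 5.21, 4.64 and 5.82 in control arrays, the largest difference of this group at -1.11 (adjusted p = 0.127). Its groups did not overlap, although p300-deleted 2 was far below the other arrays of its group. At 3.54 that array read below its brightest bacterial probe set (3.83), so the size of the Nek2 difference is uncertain. Aurka, or Aurora A of the spindle poles, was at -1.05 (adjusted p = 0.0982), Melk at -0.73 (adjusted p = 0.101) and Plk4, the master kinase of centriole duplication, at -0.62 (adjusted p = 0.116).

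Among the genes of the spindle checkpoint and of anaphase, 1 of 7 fell, with a median of -0.93. This was Ttk, the kinase Mps1 that starts checkpoint signalling at unattached kinetochores, which read 5.003, 4.40 and 4.44 after deletion and 5.94, 5.42 and 6.25 in control arrays. All p300-deleted arrays were below all controls. Its log2 value fell by 1.26 (SE 0.23, adjusted p = 0.0440), or 2.39-fold on a linear scale, and was called under 11 of 15 alternatives, more than for any other member. Bub1, a checkpoint kinase, was at -1.07 (adjusted p = 0.0795) and its relative Bub1b, the BubR1 protein of the inhibitor complex, at -0.68 (adjusted p = 0.218). Cdc20, the activator of the anaphase-promoting complex that the checkpoint holds back, read 7.81, 7.31 and 7.60 after deletion and 8.29, 8.17 and 9.06 in control arrays. The groups did not overlap at -0.93 (adjusted p = 0.0908). Ube2c, the ubiquitin-conjugating enzyme of that complex, was at -0.99 (adjusted p = 0.217) with controls from 8.24 to 9.92.

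The other checkpoint genes had small differences. Mad2l1, the Mad2 protein, read 8.20, 8.13 and 7.995 after deletion and 7.998, 8.20 and 8.93 in control arrays. Controls 1 and 2 lay close to the p300-deleted arrays and control 3 alone stood well above them, and the difference of -0.27 (adjusted p = 0.571) became 0.0068 without control 3. Bub3, which carries Bub1 to the kinetochore and also has a part in mRNA splicing, read 9.83, 9.97 and 9.93 after deletion and 9.96, 9.93 and 10.17 in control arrays. Its groups overlapped at a difference of -0.11 (SE 0.11, adjusted p = 0.649), and its further probe sets were at -0.20, -0.065 and 0.15.

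The chromosomal passenger complex corrects faulty attachments and later directs cytokinesis. Of its 3 measured genes 1 fell, with a median of -1.06. Aurkb, its kinase Aurora B, read 5.52, 4.88 and 5.22 after deletion and 6.43, 6.17 and 7.17 in control arrays. The lowest control stood above every p300-deleted array. Its log2 value fell by 1.38 (SE 0.26, adjusted p = 0.0445), with means of 5.21 ± 0.32 after deletion and 6.59 ± 0.52 in control cells (SD, n = 3 each). This was the largest difference among the 46 members, 2.60-fold on a linear scale. A second probe set of Aurkb was at -1.10. Birc5, the survivin subunit, read 7.42, 6.93 and 6.87 after deletion and 7.92, 7.75 and 8.73 in control arrays, again with no overlap, at -1.06 (adjusted p = 0.0831). Incenp, the scaffold, was at -0.62 (adjusted p = 0.154).

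**Figure D4:**
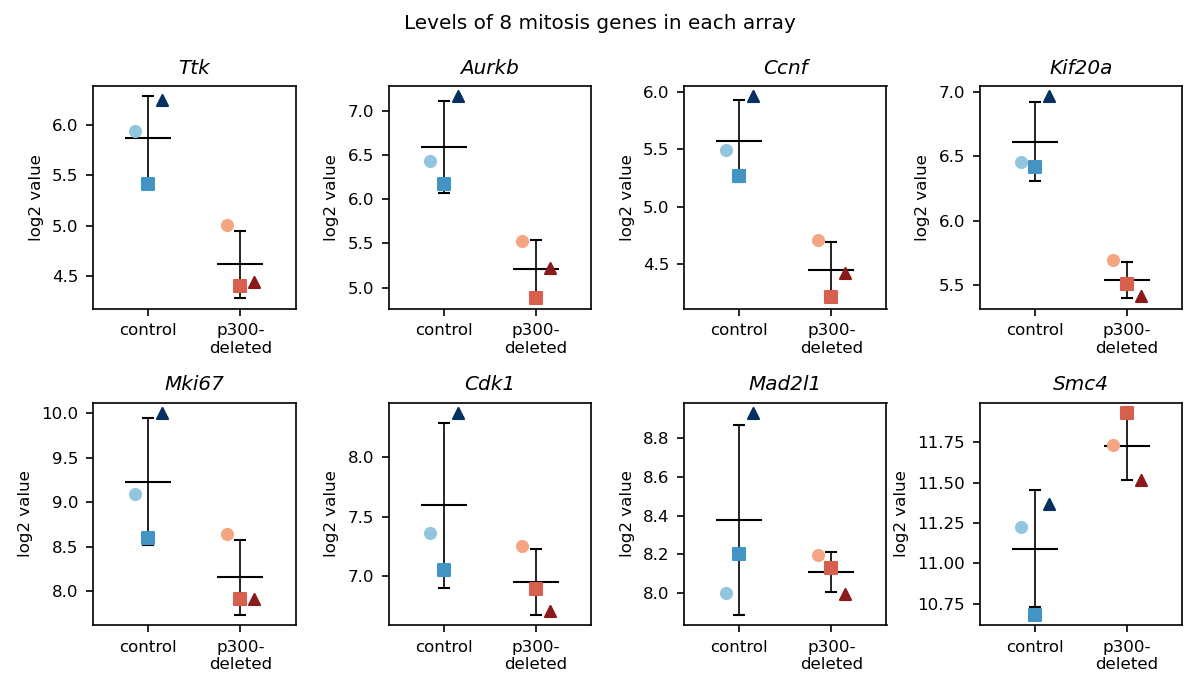
Log2 values of 8 mitosis genes in each array, with controls in blue and p300-deleted arrays in red, circles, squares and triangles for samples 1, 2 and 3, and horizontal marks and bars for the mean and SD of each group (n = 3). The top row holds the 4 genes that passed the test, and in the bottom row Mki67, Cdk1 and Mad2l1 overlap between groups while Smc4 is higher in p300-deleted cells; vertical axes differ between panels and do not start at 0.

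For the centromere and kinetochore, limma called 0 of 4 tested genes (3 at an unadjusted p under 0.05), with a median of -0.71. Cenpf, a large protein of the outer kinetochore, read 5.55, 5.28 and 5.03 after deletion and 6.04, 5.76 and 6.95 in control arrays. The groups did not overlap, at -0.96 (adjusted p = 0.129). Nuf2 was at -0.85 (adjusted p = 0.221), Cenpa, the histone H3 variant of centromeres, at -0.58 (adjusted p = 0.118) and Ndc80 at -0.46 (adjusted p = 0.299). Nuf2 and Ndc80 pair in one microtubule-binding complex, and both overlapped between groups. Cenpe, a kinetochore motor, was too dim to be tested and read 3.07, 2.56 and 2.94 after deletion and 3.83, 3.29 and 5.01 in control arrays. Its p300-deleted arrays lay below the brightest bacterial control probe set of their arrays (3.66 to 3.89). Controls 1 and 2 did so as well (3.97 and 3.99), and only control 3 lay above (3.64). The Cenpe difference of -1.19 is therefore uncertain.

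All 6 kinesins had negative differences, with a median of -1.04, and 1 fell. Kif20a, which relocates the passenger complex to the central spindle, read 5.69, 5.50 and 5.42 after deletion and 6.46, 6.41 and 6.96 in control arrays. The spread within each group was small and the groups did not overlap. Its log2 value fell by 1.07 (SE 0.16, adjusted p = 0.0257), the lowest adjusted p of the list. Kif11, the Eg5 motor that pushes spindle poles apart, read 5.84, 5.10 and 5.38 after deletion and 6.28, 6.05 and 7.44 in control arrays, a difference of -1.15 that did not pass (SE 0.34, adjusted p = 0.132). Its groups did not overlap, and control 3 stood 1.27 above the mean of the other controls. Kif2c, a microtubule depolymerase at centromeres, was at -1.13 (adjusted p = 0.0801), Kif22 at -1.01 (adjusted p = 0.153), Kif23, part of centralspindlin, at -0.78 (adjusted p = 0.218) and Kif4 at -0.67 (adjusted p = 0.185).

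Of 6 spindle and microtubule proteins 0 were called by limma (5 had an unadjusted p under 0.05), with a median of -0.86. Spag5, or astrin, read 5.57, 4.90 and 5.05 after deletion and 6.13, 5.89 and 6.81 in control arrays. The groups did not overlap, at -1.10 (adjusted p = 0.0746). Nusap1 was at -0.98 (adjusted p = 0.165), Tpx2, which activates Aurora A on the spindle, at -0.90 (adjusted p = 0.0897), Prc1, which bundles the midzone, at -0.83 (adjusted p = 0.259) and Stmn1, a microtubule destabiliser, at -0.74 (adjusted p = 0.110). Hmmr was at -0.45 (adjusted p = 0.438) and overlapped between groups. The cytokinesis genes had a median of -0.98 over 3 genes, with 0 past the threshold in limma (3 at an unadjusted p under 0.05). Racgap1, the partner of Kif23 in centralspindlin, was at -0.98 (adjusted p = 0.0688), Ect2, the RhoA exchange factor it recruits, at -0.71 (adjusted p = 0.146). Anln, or anillin of the contractile ring, read 4.06, 3.62 and 3.65 after deletion and 4.98, 4.04 and 5.35 in control arrays, with p300-deleted 1 just above control 2, at -1.02 (adjusted p = 0.128). Anln was the 1 tested member whose mean after deletion, 3.78, lay below the brightness limit of 3.907, so it was tested only through its controls. In p300-deleted 2 and 3 it read below the brightest bacterial probe set (3.83 and 3.89), so its difference and its place in the counts are uncertain.

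Mki67, the proliferation marker Ki-67, read 8.64, 7.91 and 7.91 after deletion and 9.10, 8.59 and 10.01 in control arrays. The groups overlapped, as p300-deleted 1 lay just above control 2. The difference of -1.08 (SE 0.34, adjusted p = 0.156) was -0.69 without control 3. Top2a, the topoisomerase that untangles sister chromatids, read 8.88, 8.16 and 8.43 after deletion and 9.24, 8.50 and 10.18 in control arrays, overlapping in the same way at -0.81 (adjusted p = 0.295). The condensin genes, which compact chromosomes, split. Ncapd2 was at -0.76 (adjusted p = 0.140) and Smc2 at -0.46 (adjusted p = 0.253). Smc4, the partner of Smc2 in the same complex, read 11.73, 11.93 and 11.51 after deletion and 11.23, 10.68 and 11.37 in control arrays, the only member with a positive difference, at 0.63 (SE 0.19, adjusted p = 0.132), and with every p300-deleted array above every control. Its further probe sets were at 0.012 and -0.07, and with all its probe sets averaged the difference was 0.19.

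Further probe sets of the same genes were read as well. Of 86 probe sets for 47 genes, 39 were further ones for 24 genes. Of the 28 further ones bright enough to test, 27 were negative, with a median of -0.593, and the 11 dim ones had a median of -0.0918. In a fit of all 15838 brighter probe sets 1 of 74 probe sets of members passed, that of Kif20a, where 0.139% of all probe sets were called lower. For 21 of the 47 genes the brightest probe set has an identifier ending in _s_at, _x_at or _a_at, the Aurkb and Kif20a ones included, and can read related transcripts. The choice of the brightest probe set mattered for size. With all probe sets of a gene averaged, 10 members moved by more than 1.5 times: Cdca3 was at -0.36, Kif2c at -0.50, Spag5 at -0.56, Cenpf at -0.59, Bub1 at -0.65, Kif11 at -0.76, Kif23 at -0.47 and Incenp at -0.41, besides Bub3 at -0.06 and Smc4. In that fit Aurkb was at -1.24 and no longer called (adjusted p = 0.0518).

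Other genes of mitosis were grouped by function into further lists, which were also chosen with earlier results of these data known. Of 89 tested genes in 4 lists 1 fell, where 0.726% of all genes were called lower. Of the 89, 75 were negative and the median was -0.22, nearer to all genes than to the members. Cit, the citron kinase of the midbody, fell by 0.69 (SE 0.12, adjusted p = 0.0373), called under 6 of 15 alternatives, and was the 1 of 29 spindle, kinesin and centrosome genes to pass (median -0.32). With all its probe sets averaged it was at -0.40 (adjusted p = 0.0911). Of 25 other kinetochore genes 0 were called by limma (8 lower and 2 higher at an unadjusted p under 0.05; median -0.22), with Spdl1 at -0.94 and Spc25 at -0.73 (-0.34 with its probe sets averaged). Of 21 other kinases, phosphatases and subunits of the anaphase-promoting complex 0 were called by limma (9 lower and 0 higher at an unadjusted p under 0.05; median -0.22), with the Cdk1-activating phosphatases Cdc25b at -0.90 and Cdc25c at -0.79. Cdc25c was tested only through its controls (mean 4.66), its mean after deletion of 3.87 being below the brightness limit. Of 14 cohesin and condensin genes 0 were called by limma (3 lower and 3 higher at an unadjusted p under 0.05; median -0.08), with the condensin subunit Ncapg at -1.06 and Cdca5, or sororin, at -0.98.

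Among 14 regulators of this programme 1 fell, with a median of -0.07. Mybl2, the gene of B-Myb, read 5.04, 4.93 and 4.95 after deletion and 5.76, 5.55 and 6.001 in control arrays. The groups did not overlap, and its log2 value fell by 0.80 (SE 0.13, adjusted p = 0.0343; called under 9 of 15 alternatives). With all probe sets of Mybl2 averaged it was at -0.48 (adjusted p = 0.0949). Foxm1 and E2f8 were chosen after their values were seen. Foxm1 was at -0.63 (adjusted p = 0.1004), and E2f8 had the largest difference of the 14, at -1.03 (adjusted p = 0.114). Of the 14 regulators, 9 were negative and 5 positive. Of 9 inhibitors of the cell cycle 0 were called by limma (2 lower and 3 higher at an unadjusted p under 0.05; median -0.04), and Cdkn1b, the p27 inhibitor, and Btg2 were both at 1.34, with adjusted p of 0.0715 and 0.0810. With all its probe sets averaged Cdkn1b was at 0.50 (adjusted p = 0.209).

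The G1 to S and DNA replication genes, the stage before mitosis, gave smaller differences but more calls. Of 53 tested, 9 fell and 0 rose, 47 were negative, and the median was -0.49 against -0.89 for the mitosis genes. Ccne1, or cyclin E1, was at -0.88 (SE 0.13, adjusted p = 0.0223), the helicase subunit Mcm3 at -0.85 (SE 0.12, adjusted p = 0.0230), the replication factor Gins1 at -0.84 (SE 0.14, adjusted p = 0.0343) and thymidine kinase Tk1 at -0.77 (SE 0.13, adjusted p = 0.0392). They were called under 11, 9, 9 and 10 of 16 alternatives. With all its probe sets averaged Mcm3 was at -0.49 and no longer called (adjusted p = 0.166). Relative to their own means these genes averaged 0.13, 0.13 and 0.39 in controls 1, 2 and 3 and -0.15, -0.28 and -0.22 in p300-deleted 1, 2 and 3, with control 3 again the highest. Whether the lists differ was not tested.

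**Figure D5:**
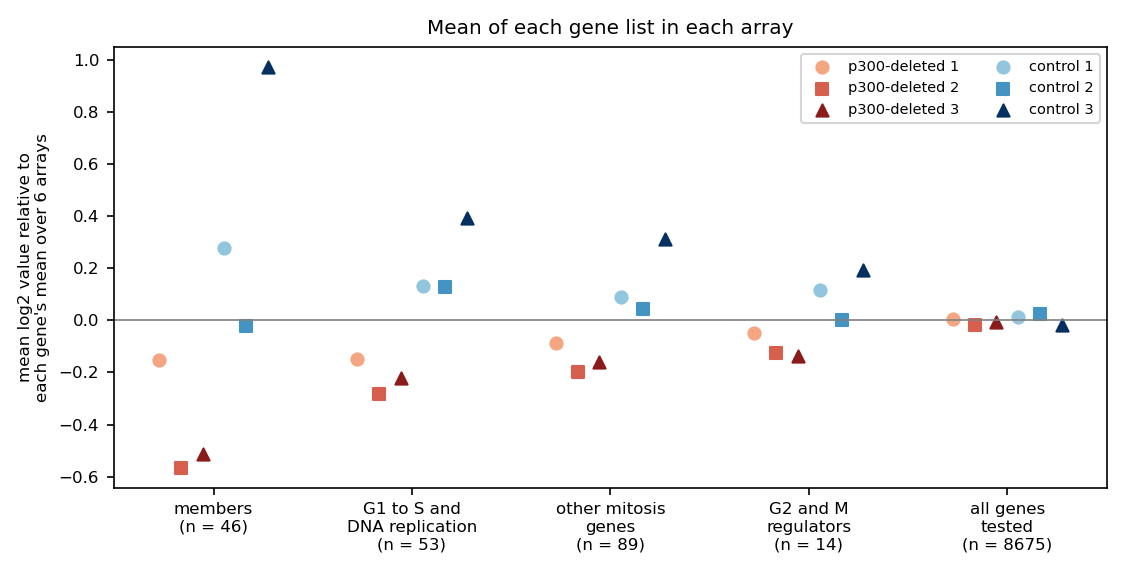
Mean log2 value of each gene list in each array, relative to each gene's mean over the 6 arrays (vertical axis), for the mitosis genes, 3 comparison lists and all genes tested, with controls in blue and p300-deleted arrays in red. In every list but all genes the controls lie above the p300-deleted arrays, and control 3 reaches 0.97 for the mitosis genes against 0.39 for the G1 to S and replication genes.

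Genes of other cell types were read beside these. Of all 8675 genes tested, 86 were called higher and 712 were higher at an unadjusted p under 0.05. Plasma cell markers (8 of 9 measured, 5 called higher) had mean log2 levels of 8.46 to 8.96 in p300-deleted arrays and 7.76 to 7.89 in controls, and myeloid markers (11 of 12 measured, 9 tested, 0 called in limma, 6 higher at an unadjusted p under 0.05) 6.20 to 7.28 and 5.20 to 5.94, with the highest value of either list in p300-deleted 1. Markers of CD8 T cells and NK cells (7 of 8 measured, 1 called higher) ran from 6.92 to 7.38 and 6.65 to 6.71. B cell markers (7 of 8 measured, 6 tested, 0 called and 0 at an unadjusted p under 0.05 in limma) ran from 5.94 to 6.59 and 6.36 to 6.64. Among precursors that divide fast, erythroid markers (5 of 8 measured, 3 tested, 0 called and 0 at an unadjusted p under 0.05 in limma) ran from 4.03 to 4.23 and 4.06 to 4.52, highest in control 3, with Alas2 at 6.12 there and globin Hba-a1 at 3.02 to 3.17 in all arrays, and thymocyte markers (6 of 6 measured, 2 tested, 0 called in limma, 1 higher at an unadjusted p under 0.05) from 4.84 to 4.91 and 4.70 to 4.89, with Rag1 and Rag2 at no more than 3.31. Of that list Dntt read 6.98 to 7.16 and Cd1d1 8.49 to 9.13 over the arrays, and Cd1d1 was the gene higher at an unadjusted p under 0.05 (difference 0.40, adjusted p = 0.124). Globin Hbb-b1 was not among the measured erythroid genes, and probe sets naming several genes were not read, so globin RNA was only partly covered. The part of other cell types in the differences of the mitosis genes was not tested.

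Outside all lists, the 10 genes whose pattern over the 6 arrays was most like the mean of the 46 members were Kpna2, Pclaf, Tcf19, Pgam1, Fignl1, Lgals1, Lrr1, Rad54l, Plxdc1 and Swap70, with Pearson r from 0.9772 to 0.9945. The members themselves had a median r of 0.979 with their own mean, and Smc4 the lowest at -0.382. Kpna2, an importin, was at -0.78 and Pclaf, a PCNA-binding factor, at -0.83 (adjusted p of 0.0961 and 0.124). These correlations carry both the difference between groups and the height of control 3, over 6 arrays, and are given as a description.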

How the data were processed

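RNA of 6 samples was hybridised to Affymetrix mouse arrays, 1 array per sample. The deposited values are log2 signals made by the authors with RMA, per the submitters' processing notes, with no version stated. RMA as usually run normalises probe intensities between arrays, so levels are relative to the other genes of an array. No read depth exists, and 3 arrays per group limit the precision.

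Of 22690 probe sets, 20380 had 1 gene symbol and were no control, 691 had several and 1606 had none; symbols came from the platform annotation. Each of 12393 genes was read from its brightest probe set (by mean of the 6 arrays), and the dimmest 30% of genes by that mean (3718 genes, below 3.907) were left out. Differences, p300-deleted minus control, were fitted over the remaining 8675 genes with limma 3.58.1 (lmFit and eBayes) in R 4.3.3. P-values were two-sided, adjusted by the Benjamini-Hochberg method over all genes tested, with a gene called at an adjusted p under 0.05. The fit was tested on simulated data.

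The members and lists were chosen with earlier results of these data known. Array values are printed for called members, for the member with the largest difference in each role, for members of opposite sign and for Mki67, Top2a, Cdk1, Birc5, Cks1b and Cks2; the rule also held Ccnb1, which is not analysed here. Those of Ccna2, Plk1, Cdc20, Mad2l1, Bub3 and Cenpe were added after their values were seen. Of each list, up to 4 called genes with the largest differences are named, or up to 2 where none was called. Promoter windows came from RefSeq, GRCm38.p6. A planned comparison of protein sequences was not run. Alternatives covered the filter, normalisation, probe sets, variance model, array weights, replicate numbers, 18S and Gapdh values as covariates, the threshold and leaving out each array.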

Additional observations from a re-analysis of the deposited data

How the results depend on the processing

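Across 18 settings, 44 of 46 members kept a negative difference in every setting in which they were tested; the others were Smc4, and Mad2l1, whose difference ran from -0.4604 to 0.0068 when 1 array was left out, reversing without control 3. The settings for the filter, variance model, replicate block and threshold leave each difference unchanged, so they do not bear on direction. Averaging probe sets changes nothing for the 23 members with 1 probe set. The count of members called lower was less stable than their direction. It was 4 as reported and ranged from 0 to 8 when 1 array was left out. It was 1 with the dimmest 50% of genes left out (31 members tested). That filter removed all 4 members called as reported, Aurkb, Ttk, Ccnf and Kif20a, so they were not retested there. The 1 call was Plk1. The count was 34 with array weights (6.39% of all genes called lower). With the 18S covariate it was 0 in limma (43 at an unadjusted p under 0.05). It was 15 at an adjusted p under 0.1 and 0 in limma at one under 0.01 (39 at an unadjusted p under 0.05). It was 3 to 6 under the other settings, 6 of them with a replicate block. The sample numbers were not taken as pairs, since deviations of same-numbered arrays correlated at -0.0741, 0.123 and -0.12. The median difference moved from -0.89 to -1.40 with the Gapdh covariate, whose values did not overlap between groups. It ran from -1.14 to -0.55 when 1 array was left out. The count of members with no overlap ran from 31 to 43 when 1 array was left out, an alternative added after the data were seen. Leaving out an array can only keep or raise this count, so it could not fall below the 31 of all arrays. The share of all genes was 13.2% with every array and 15.7% to 25.9% with 1 fewer. The causes of these changes were not tested.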
